A study of Mus musculus with 6 samples.

Results

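Gained PU.1 binding regions that lie beside constitutive ones were described in iBN cells, a mouse line that the labels call a granulocyte-macrophage progenitor and in which doxycycline induces PU.1. ChIP-seq peak lists of 2 induced libraries (1000 ng per ml doxycycline for 72 hours) and 2 uninduced control libraries were used, all from cells kept in GM-CSF and precipitated with the same PU.1 antibody. Peaks of the 4 lists that overlapped by at least 1 bp were joined into 82810 regions. A region was called gained when both induced lists and neither uninduced list held a peak there, and shared when all 4 did. Of all regions, 18414 were gained, a share of 22.2%, and 19391 were shared (31461 without uninduced library 1). The regions described here are the 6086 gained regions with a shared region within 10 kb, measured from edge to edge, and are called flanking. They made up 33.1% of the gained regions and 7.35% of all regions, and the other 12328 gained regions are called distant. The flanking regions were chosen by peak presence in these 4 lists and by distance, so their number and presence pattern are a description. The labels give no clone of the line, do not describe how the PU.1 system is built, and do not say whether replicates were separate cultures.

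PU.1 is the product of Spi1, a gene active in myeloid cells and B cells. It belongs to the ETS family of transcription factors, which bind purine-rich sites with a GGAA core. It is known to act in a dose-dependent way in blood cells, where higher levels favour macrophages and lower levels are found in granulocytes and B cells. Enhancers of myeloid genes often hold several binding sites of such factors within a few kilobases, and PU.1 is known to open chromatin around the sites it binds. Positions below are in mouse build mm9, counted from 1, and regions are named by position because no annotation or sequence of that build was used here.

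The lists held between 31960 and 68076 peaks, and both induced lists were longer than both uninduced ones. Their read depth is unknown, so a missing peak means that none was called by the authors at their threshold. Each peak carries 1 score given by the authors, of at least 50, and a region was given the score and width of its highest-scoring and widest peak in each list. Scores were set against each other only within a list.

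Flanking regions were most frequent close to their shared region and thinned out with distance. The median distance was 3505 bp, with quartiles of 1379 and 6379 bp. Within 1 kb lay 1219 flanking regions (20.0%), between 1 and 2 kb lay 782 (12.8%), between 2 and 5 kb lay 1890 (31.1%), and between 5 and 10 kb lay 2195 (36.1%). Counted per kilobase, the number went from 1219 in the first kilobase to 395 between 9 and 10 kb and 348 between 10 and 11 kb, so no step marked the limit of 10 kb. A single flanking region touched its shared region with no base between them. The shared region lay only on the side of lower coordinates for 2520, only on the side of higher coordinates for 2428, and on both sides for 1138 (18.7%). Most flanking regions, 4234 or 69.6%, had 1 shared region within 10 kb, 1401 had 2 and 451 had 3 or more, with 5 as the highest number.

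Nearness to shared regions was common to peaks of the induced lists and was not particular to gained regions. A shared region lay within 10 kb of 34.8% of the regions found in induced library 1 only (95% Wilson interval 34.0 to 35.7%), of 25.3% (23.8 to 26.8%) of those in induced library 2 only, and of 38.5% (37.7 to 39.4%) of those in both induced libraries and uninduced library 2. The value for gained regions, 33.1% (32.4 to 33.7%), lay inside that range and near the 30.5% of all regions that were not shared. It was lower for regions that only uninduced libraries held, with 9.65% (8.67 to 10.7%) for regions in both uninduced libraries, called lost, 12.1% for uninduced library 1 alone and 17.3% for uninduced library 2 alone. Of the shared regions themselves, 45.8% had another shared region within 10 kb. Within 1 kb the shares were 6.62% for gained regions, 6.83% for induced library 1 only and 7.73% for both induced libraries and uninduced library 2. For shared regions the share within 1 kb was 9.53%, so crowding close to a shared region was also seen in these classes. The Wilson intervals cover counting error only, and neighbouring regions are not independent. Without uninduced library 2, 30507 regions were gained and 11288 of them were flanking (37.0%), without induced library 2 the flanking regions numbered 10988 of 31417 (35.0%), and without uninduced library 1 they numbered 9253 of 19869 (46.6%). With 2 libraries against 2, presence and absence cannot reach an exact two-sided p below 0.333, and no test was made on it.

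**Figure D1:**
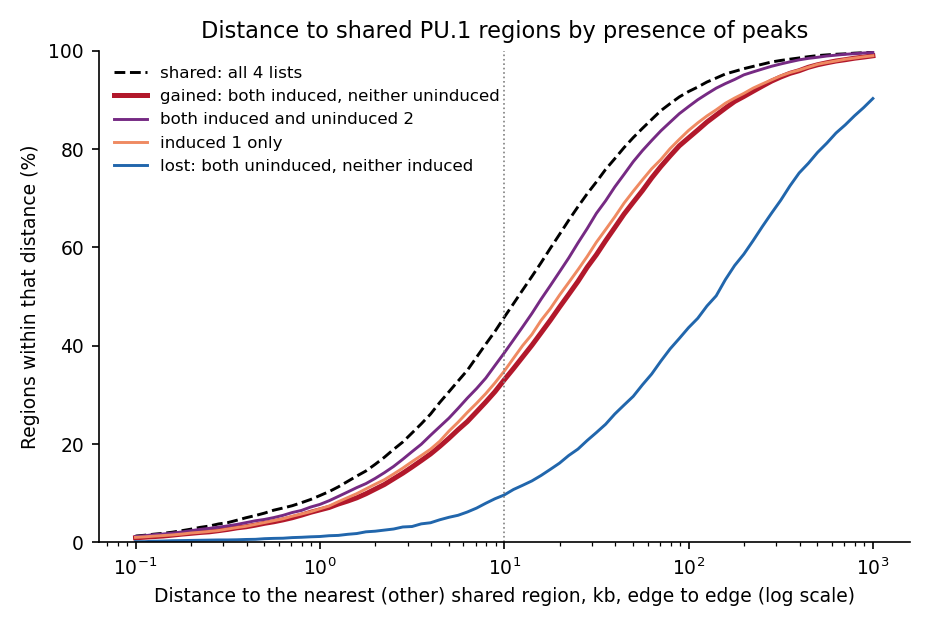
Share of regions (y axis, %) with a shared region within a given distance (x axis, kb, log scale) for 5 groups of regions by the lists that hold a peak; the dotted line marks 10 kb. The curve of gained regions (33.1% at 10 kb) runs beside that of regions in induced library 1 only (34.8%), and the curve of lost regions lies far lower (9.65%).

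The regions on both sides of the limit had like values. The last 3 flanking regions lay 9993, 9996 and 9998 bp from a shared region, at chr1:137595919-137596909, chr2:127705064-127705945 and chr4:119650099-119651159. The first 3 distant regions lay at 10003, 10009 and 10010 bp, at chr15:95533609-95534545, chr7:107375208-107377434 and chr17:31720100-31721049. Scores of the 3 inside were 169.1, 145.61 and 90.53 in induced library 1, and those of the 3 outside were 70.6, 189.73 and 88.85. Between 9 and 10 kb the median score was 140 in induced library 1 and 93.8 in induced library 2 over 395 regions, and between 10 and 11 kb it was 142 and 94.8 over 348 regions.

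The strongest flanking region by the lower of its induced scores was chr10:42571822-42573158, with scores of 2273.56 and 1732.83 in induced libraries 1 and 2. It lay 4126 bp from the shared region chr10:42577285-42578265, which scored 119.91 and 96.78 in the induced libraries and 85.29 and 60.24 in the uninduced libraries. The gained region thus outscored its constitutive neighbour in both induced libraries, and it ranked second of all gained regions. A weak neighbour was also seen beside chr1:133148906-133150373, which scored 1232.44 and 790.87. Its shared neighbour 1344 bp away, chr1:133151718-133152754, scored 134.58 and 94.07 in the induced libraries and 201.43 and 92.43 in the uninduced ones. The same held at chr11:59915741-59917486, with 1109.52 and 771.01 against 113.36 and 137.27 in its neighbour 5300 bp away.

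Other strong flanking regions lay beside shared regions of high induced scores. The region chr3:88263148-88266283 scored 1672.28 and 1084.03, and the shared region chr3:88256182-88260536, 2611 bp away, scored 1699.11 and 1095.79 in the induced libraries and 234.6 and 624.77 in the uninduced ones. The widest of the strongest flanking regions, chr19:23206674-23212111 (5438 bp), scored 1740.77 and 813.41. Its neighbour chr19:23213444-23219385, 1332 bp away, scored 2477.45 and 1600.6 in the induced libraries and 258.22 and 375.86 in the uninduced ones. Here the shared region was above the flanking one in both induced libraries. The region chr19:7579738-7581507 scored 1539.91 and 928.58, against 1138.69 and 538.3 in the induced libraries and 105.25 and 164.82 in the uninduced ones for chr19:7567345-7571209, 8528 bp away.

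The remaining 4 of the 10 strongest lay between 7048 and 9601 bp from their shared region. They were chr3:94879406-94880886 (961.48 and 878.35), chr3:107065410-107066562 (1056.12 and 866.49), chr10:117265384-117268844 (1458.1 and 788.35) and chr19:44339563-44340881 (1177.47 and 785.29). In both induced libraries each of these outscored its nearest shared region. All 10 had a peak in the list that the authors merged from the induced condition. Among them chr19:44339563-44340881 alone also had one in their merged uninduced list. Of the 10, 3 lay on chromosome 3, all between 85 and 120 Mb, and 3 on chromosome 19. Of all 6086 flanking regions, 185 lay in that segment of chromosome 3 and 285 on chromosome 19. The segment held 568 gained regions among 1596 regions, and chromosome 19 held 866 among 2865. Flanking regions made up 32.6 and 32.9% of those gained regions, against 33.1% of all gained regions.

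**Figure D2:**
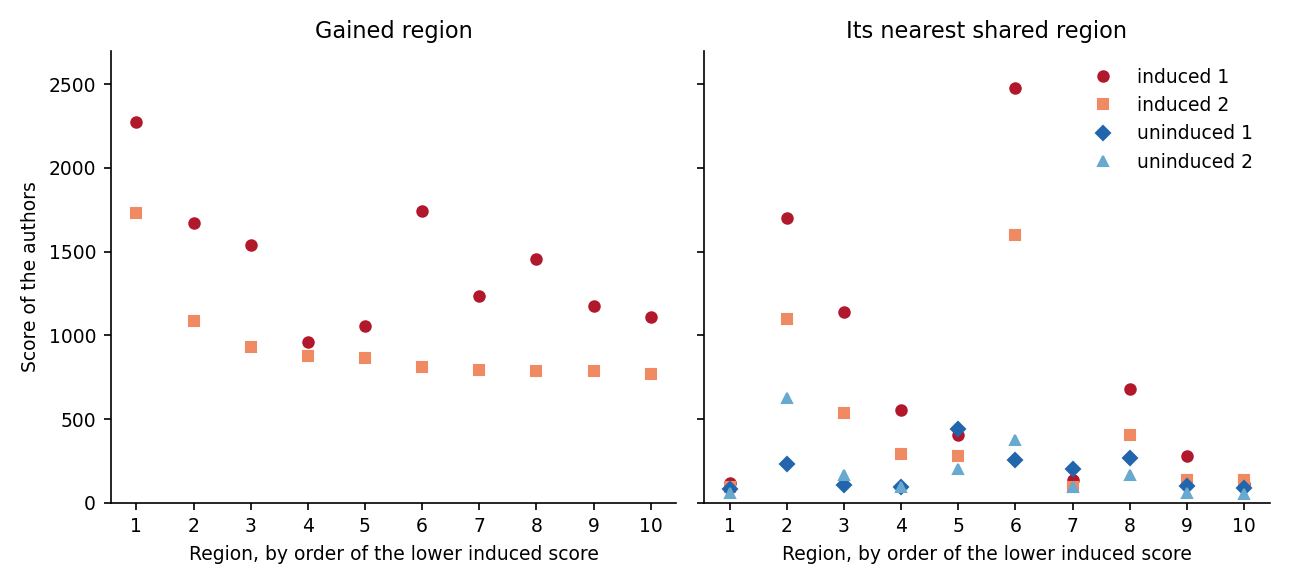
Scores given by the authors (y axis) of the 10 strongest flanking regions (left) and of the shared region nearest to each (right), ordered by the lower induced score of the flanking region; points are single libraries, and scores are to be compared within a library only. The first region (2273.56 and 1732.83) stands beside a shared region that scored no more than 119.91 in any library, and the second and sixth stand beside strong ones.

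These strong cases were not typical. In induced library 1 the flanking regions had a median score of 143 (quartiles 92.9 and 231) against 619 for their nearest shared regions, and in induced library 2 they had 93.8 (68.1 and 142) against 393. A flanking region outscored its nearest shared region in 13.2% of cases in induced library 1, in 13.4% in induced library 2, and in both libraries in 584 cases (9.60%). Across the 6086 flanking regions, the Spearman correlation of their score with that of the nearest shared region in the same library was 0.02 in induced library 1 and 0.01 in induced library 2. Their own scores in the 2 induced libraries correlated at 0.72, and those of distant regions at 0.74. Each value is across regions of the same libraries, which share depth and neighbourhood, and is a description.

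Flanking and distant gained regions had nearly the same scores, and the 2 induced libraries differed in direction. In induced library 1 the median score of flanking regions was 143 and that of distant regions 135, a ratio of 1.06. In induced library 2 the medians were 93.8 and 95.1, a ratio of 0.986. Expressed as percentiles of the whole list, flanking regions stood 1.91 points higher in induced library 1 and 0.63 points lower in induced library 2 (a difference of -0.63). The difference between flanking and distant regions was therefore no larger than that between replicates. With lists cut to the length of the shortest, the ratio in induced library 1 was 0.998, and without uninduced library 2 the ratio in induced library 2 was 1.03, so neither direction held in every setting.

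Among the strongest gained regions flanking ones were fewer. They were 2 of the 10 strongest gained regions, 23 of the 100 strongest and 272 of the 1000 strongest, against 33.1% of all gained regions. These sets are nested in each other. With the gained regions cut into 10 equal groups by the lower induced score, 28.8% of the strongest group were flanking, and in the other groups the share ran from 31.4 to 35.1%. Scores of at least 500 were held by 4.14% of flanking and 5.13% of distant regions in induced library 1, and by 0.953 and 1.61% in induced library 2. At a lower limit of 100 the order differed between libraries. Such scores were held by 71.0% of flanking and 67.4% of distant regions in induced library 1, and by 45.7 and 46.8% in induced library 2.

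Flanking regions were slightly wider than distant ones in both induced libraries. The median width was 992 bp against 947 bp in induced library 1, a ratio of 1.05, and 913 bp against 881 bp in induced library 2, a ratio of 1.04. Width declined with distance over the whole range. It was 1019 and 931 bp in the 2 libraries for gained regions within 1 kb of a shared region, 982 and 902 bp between 5 and 10 kb, and 917 and 857 bp beyond 100 kb. Scores showed this decline in induced library 1, from 146 within 1 kb to 129 beyond 100 kb, and not in induced library 2, with 92.99 and 95.005. Flanking regions with 3 to 5 shared regions within 10 kb (n = 451) had median widths of 1030 and 937 bp, against 985 and 907 bp for those with 1. Regions are not replicates, and 2 libraries of 1 condition allow no test of these differences. In all 11 alternatives the width ratio stayed above 1 in each library in which it could be computed.

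**Figure D3:**
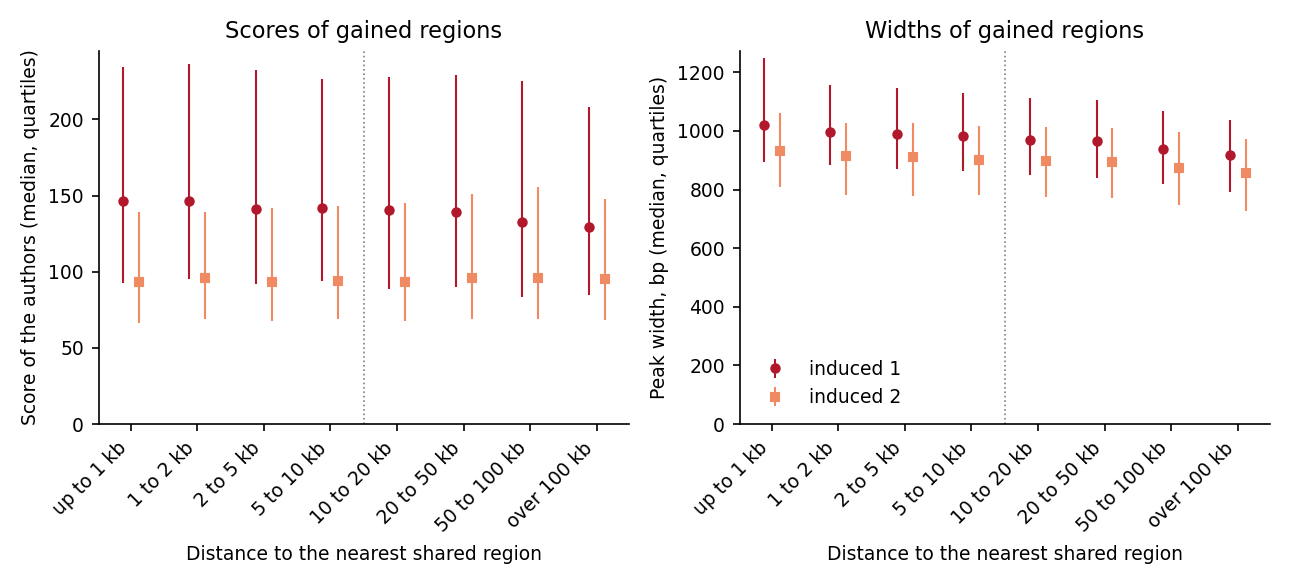
Scores given by the authors (left) and peak widths in bp (right) of all gained regions by distance to the nearest shared region; points are medians, bars run from the lower to the upper quartile, and regions left of the dotted line are flanking. Median widths go down from 1019 to 917 bp in induced library 1 and from 931 to 857 bp in induced library 2, while the scores of induced library 2 stay between 92.99 and 96.155.

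The shared regions beside flanking regions stood higher in the induced libraries than other shared regions did. There were 6599 of them (34.0% of the shared regions). Each shared region was ranked by score among the same 19391 shared regions within each library, from 0 for the lowest to 100 for the highest, so that all ranks are over the same regions. A higher rank of some regions thus goes with a lower rank of others. Ranks and their shifts give relative order only, and no gain or loss of binding. In induced libraries 1 and 2, shared regions with a flanking region had median ranks of 57.4 and 56.3, and those without had 46.2 and 46.8. In uninduced libraries 1 and 2 the medians were 49.7 and 52.4 with a flanking region, and 50.2 and 48.8 without. The gap was thus 11.2 and 9.47 points in the induced libraries and -0.50 and 3.64 points in the uninduced ones, and the values of the 2 conditions did not overlap. The mean gap was 8.75 points larger in the induced libraries. Peaks in these same lists define the flanking regions, so the gap is a description and carries no test.

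In the induced libraries the median ranks also went up with the number of flanking regions. Shared regions with 1 flanking region within 10 kb (n = 5030) had median ranks of 56.2 and 55.1 in the induced libraries, those with 2 (n = 1296) had 61.1 and 60.3, those with 3 (n = 219) had 67.8 and 65.6, and those with 4 or 5 (n = 54) had 69.8 and 68.0. In uninduced library 1 the same 4 groups lay between 48.9 and 53.0, and in uninduced library 2 between 51.7 and 55.0. The median rank shift per region, the mean induced minus the mean uninduced rank, was 2.68, 4.70 and 9.49 points with 1, 2 and 3 flanking regions and 4.83 points with 4 or 5, so it did not go up throughout. Over the 6599 regions the Spearman correlation of rank with the number of flanking regions was only 0.07 in each induced library, 0.01 in uninduced library 1 and 0.02 in uninduced library 2, so the groups overlapped widely. Shared regions with a flanking region were also wider in the induced libraries, with 1325 and 1165 bp against 1166 and 1076 bp. In the uninduced libraries they measured 1045 and 1047 bp against 1016 and 1000 bp.

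**Figure D4:**
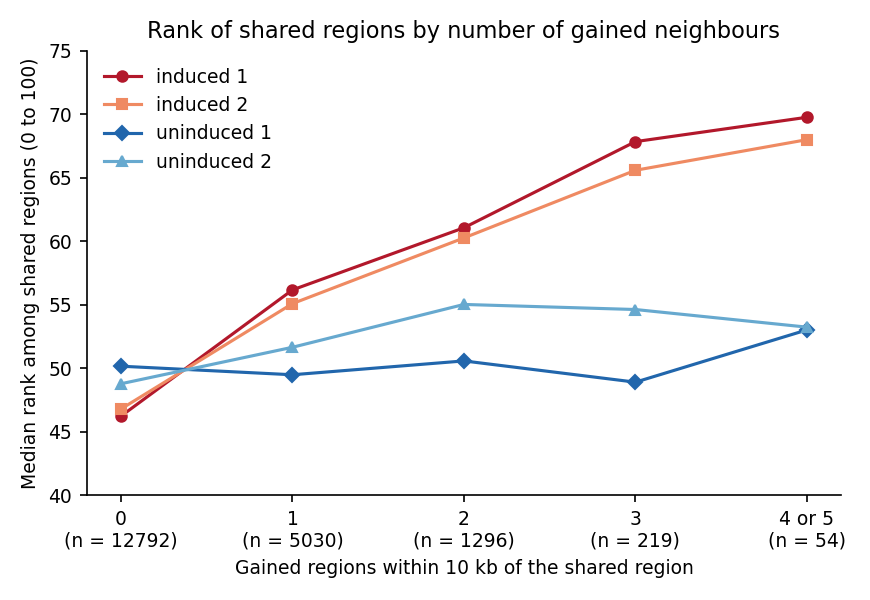
Median rank of shared regions by score among all shared regions (y axis, 0 to 100, axis shown from 40 to 75) in each library, by the number of gained regions within 10 kb (x axis, n shared regions below). The induced libraries go from 46.2 and 46.8 with none to 69.8 and 68.0 with 4 or 5, while both uninduced libraries stay between 48.8 and 55.0.

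The median rank shift was 3.41 points for shared regions with a flanking region (quartiles -10.7 and 18.7) and -1.74 points for those without (-17.9 and 13.4). A shift above 0 was found in 57.5 and 46.7% of them. The difference between both sets ran from 2.62 to 6.96 points over the 4 ways to pair 1 library of each condition. It was 1.04 points between the induced replicates and -1.72 points between the uninduced replicates. The shift was graded with distance to the nearest gained region, from 5.31 points within 1 kb and 1.87 points between 5 and 10 kb to -0.12 points between 10 and 20 kb and -8.97 points beyond 100 kb. It was not confined to neighbours of gained regions. Shared regions with no flanking region but with a region of both induced libraries and uninduced library 2 within 10 kb had a median shift of 1.95 points (n = 3316), and those with one of induced library 1 only had 0.75 points (n = 3146). Beside lost regions, again with no flanking region, it was -6.85 points (n = 269).

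**Figure D5:**
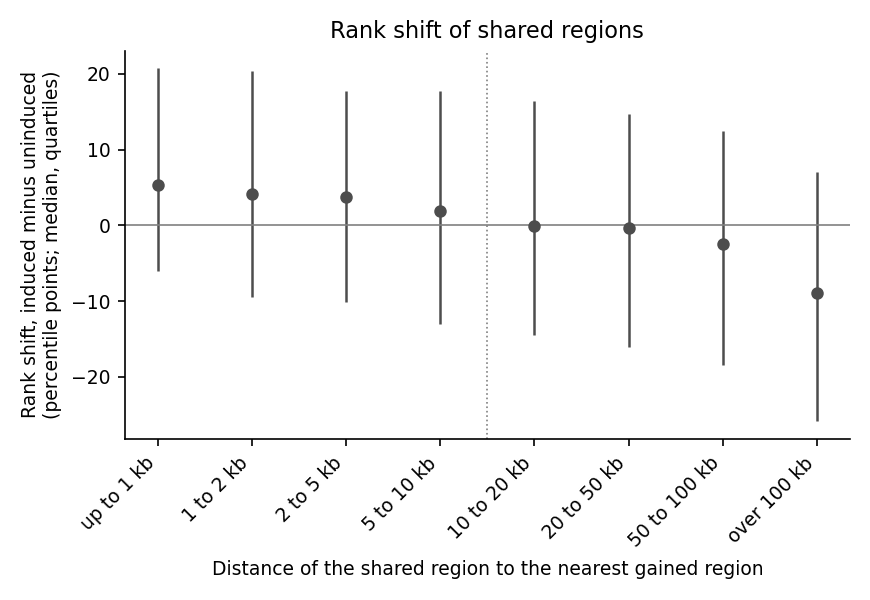
Rank shift of shared regions, induced minus uninduced (y axis, percentile points), by distance to the nearest gained region; points are medians, bars run from the lower to the upper quartile, and shared regions left of the dotted line have a flanking region. The medians go from 5.31 points within 1 kb to -8.97 points beyond 100 kb, and the quartiles of all 8 groups overlap.

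Several flanking regions could surround 1 shared region. Of the 6599 shared regions with a flanking region, 1569 (23.8%) had 2 or more, 52 had 4 and 2 had 5. Another flanking region lay within 10 kb of 2128 flanking regions (35.0%). The shared region chr4:114728441-114730287 had 5, at distances of 213, 4670, 5388, 7250 and 7316 bp on both sides, with induced scores from 54.91 to 443.9 in library 1 and from 67.4 to 187.53 in library 2. This shared region scored 728.17 and 542.22 in the induced libraries and 329.77 and 431.7 in the uninduced ones. Its rank was lower in the induced libraries, with a shift of -5.79 points, so a crowd of flanking regions did not always go with a higher rank. The other with 5, chr15:83272521-83273641, scored 758.31 and 511.54 in the induced libraries and 156.47 and 215.02 in the uninduced ones, a shift of 20.4 points. Its flanking regions lay 4094 to 8295 bp away and scored 104.98 to 312.17 in induced library 1.

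Among shared regions with 4 flanking regions, the 3 with the highest lower induced score are given next. Their choice by induced score itself favours a positive shift. The region chr3:89882266-89888628, 6363 bp long, scored 3100 in both induced libraries and 2365.27 and 832.36 in the uninduced ones, a shift of 4.51 points, and had flanking regions 20 and 124 bp from its edges. The value of 3100 was held by 333 shared regions in induced library 1 and by 83 in induced library 2, with 48 and 13 above it, so regions at that score are tied and their ranks do not separate them. The nearer of these, chr3:89880547-89882245, scored 430.58 and 217.23, and the other, chr3:89888753-89890657, scored 939.11 and 340.34. The region chr11:77596822-77600416 scored 3100 and 2258.92 in the induced libraries and 1525.14 and 1854.6 in the uninduced ones, with 2 flanking regions on each side and a shift of 0.96 points. At chr19:3375752-3379461 all 4 flanking regions lay on the side of higher coordinates, from 1372 to 9008 bp away. That shared region scored 2912.05 and 1967.42 in the induced libraries and 94.56 and 276.72 in the uninduced ones, a shift of 56.5 points.

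Flanking regions were found on all 20 chromosomes that held gained regions. Their share of the gained regions was highest on chromosome 11, with 480 of 1198 (40.1%, Wilson interval 37.3 to 42.9%), and lowest on chromosome X, with 68 of 342 (19.9%, 16.0 to 24.4%). Chromosome 11 held 11.5 and chromosome X 1.62 shared regions per Mb. Over the 20 chromosomes the share correlated with the density of shared regions (Spearman 0.62), given as a description since both rest on the same lists. On chromosome 19, which had 11.2 shared regions per Mb, 32.9% of the gained regions were flanking. The rank shift was higher for shared regions with a flanking region on each of the 20 chromosomes, by 0.35 points on chromosome 8 to 10.9 points on chromosome 3. On chromosome 19 shared regions moved up in relative order with a flanking region (9.14 points) and without one (7.33 points). Between 85 and 120 Mb of chromosome 3, both sets were also high, at 16.4 and 9.65 points. Without that segment the gap between induced and uninduced libraries was 8.36 points, and without chromosome 19 it was 8.68 points.

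The authors' merged lists, made from the same libraries but not used to choose the regions, held nearly all flanking regions. A peak of the merged induced list was present at 6078 of 6086 (99.9%) and at 12306 of 12328 distant regions (99.8%). In the merged uninduced list, which held a peak at 3.94% of all gained regions, 298 flanking regions (4.90%, Wilson interval 4.38 to 5.47%) and 427 distant regions (3.46%, 3.16 to 3.80%) had one. Within 1 kb of a shared region this share was 6.81% (5.53 to 8.36%), and beyond 100 kb it was 1.93% (1.51 to 2.46%). In between it did not fall steadily. It was 3.96% from 1 to 2 kb, 5.29% from 2 to 5 kb and 3.83% from 5 to 10 kb. Farther out it was 4.42% from 10 to 20 kb, 4.46% from 20 to 50 kb and 2.85% from 50 to 100 kb. The 285 flanking regions with a merged uninduced peak that did not reach the shared region had a median score of 59.0 there, against 126 in the whole merged list. At these positions a peak was called in the merged uninduced list although neither single uninduced list held one. The regions were chosen for that absence, so the choice itself favours low merged scores. A single merged induced peak covered both the flanking region and its shared neighbour in 147 cases (2.42%), 144 of them within 1 kb, where they made up 11.8%. A single merged uninduced peak did so in 13 cases, all within 1 kb, and these are counted in the 6.81%.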

How the data were processed

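PU.1 ChIP-seq was analysed from 4 peak lists, 2 per condition, and from 2 merged lists. The 2 input libraries were not used here. Trim Galore, Bowtie, MACS 1.4.1 and build mm9 are named, without parameters, per the submitters' processing notes. The score of each peak is used as the authors deposited it. Not given in the sources used here are its scale, the control of peak calling and how the merged lists were made. Depth is unknown, which bears on every absent peak.

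Regions, distances, ranks, medians, Spearman correlations and 95% Wilson intervals were computed with pandas 2.3.3, SciPy 1.17.1 and NumPy 2.4.6 under Python 3.11.15, and figures were drawn with matplotlib 3.10.9. Titles gave the groups. Regions named are the 10 flanking regions whose lower induced score was highest, the 5 shared regions with the most flanking regions, and the 3 gained regions nearest to each side of 10 kb. The flanking regions and these rules were chosen with earlier results of these data known. No test was made over regions, which are not replicates. A search for the PU.1 motif and for genes near the regions was planned and not run, since no sequence or annotation of mm9 was used here. The code was tested on simulated lists with known classes and distances. Alternatives were other overlaps, score minimums, list lengths, distances, left-out libraries, left-out segments and replicate pairs. Those for the shared neighbours with equal lists, with 50% overlap and without chromosome 19 were chosen after the data were seen.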

Additional observations from a re-analysis of the deposited data

How the results depend on the processing

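The share of gained regions that were flanking depended on the settings. It was 10.9% with a window of 2 kb and 69.1% with 50 kb, which follows from the window, 30.1% with distances between centres, 31.9% when joined peaks had to share 50% of both, 24.99% with peaks scoring at least 100, and 29.2% with lists of equal length. Leaving out 1 library gave 33.0 to 46.6%, and the number of flanking regions was then 7389 without induced replicate 1, 10988 without induced replicate 2, 9253 without uninduced replicate 1 and 11288 without uninduced replicate 2, since each class then rests on fewer lists. As a replicate block, with gained and shared regions called within each replicate number, the mean share was 42.8%. The score ratio of flanking to distant regions in induced library 1 was 0.998 with lists of equal length. In induced library 2 it was 0.928 with lists of equal length and 1.03 in the replicate block. Leaving out 1 library gave 1.04 to 1.12 in induced library 1 and 0.993 to 1.03 in induced library 2. The cause was not tested. The width ratio was 1.06 and 1.05 in induced libraries 1 and 2 with a window of 50 kb and 1.06 and 1.05 in the replicate block, and in induced library 2 it was 1.02 with peaks scoring at least 100 and 1.03 with lists of equal length. Leaving out 1 library gave width ratios of 1.05 to 1.06 and 1.04 to 1.05. The gap in rank of shared neighbours between induced and uninduced libraries, 8.75 points, ran from 6.96 to 11.8 points when 1 library was left out, and was above 0 in all 11 alternatives run. The labels' replicate numbers are not stated to mark a shared culture or day. Depth is unknown, so how many flanking regions carried weak signal before induction cannot be given.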

Other observations

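Flanking gained regions also lay near other induced peaks more often than distant gained regions did. Another gained region was within 10 kb of 40.4% of flanking and 32.2% of distant regions (95% Wilson intervals 39.1 to 41.6% and 31.4 to 33.1%). A region found in both induced libraries and uninduced library 2 was within 10 kb of 30.3 and 20.1%, and a region found in induced library 1 only was within 10 kb of 29.0 and 21.7%. Flanking regions were chosen for having a shared region within 10 kb. The same shares are not given here for other classes of regions near a shared region. These differences therefore cannot be called particular to gained regions. Lost regions were rare beside both, within 10 kb of 88 flanking (1.45%, 1.18 to 1.78%) and 220 distant regions (1.78%, 1.57 to 2.03%). Regions found in uninduced library 1 only were beside 2.35% of flanking (2.00 to 2.76%) and 3.08% of distant regions (2.79 to 3.40%). Those in uninduced library 2 only were beside 3.01% (2.61 to 3.47%) and 2.70% (2.43 to 3.002%), so the order differed between the uninduced libraries. The intervals cover counting error only, and neighbouring regions share a library and a chromosome segment, so comparing them is no test.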
